A study of Mus musculus with 2 samples.

Results

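Of the 5901 STAT5 peaks on assembled chromosomes, 968 (16.4%, exact 95% interval 15.5% to 17.4%) lay in dense clusters, and these clustered peaks are described here. A peak was counted as clustered when its midpoint belonged to a group of at least 4 peak midpoints that spanned 50 kb or less on 1 chromosome. Overlapping groups were joined, which gave 196 regions, and the other 4933 peaks lay outside them. The full list held 5908 peaks, of which 7 lay on unassembled sequences. The members were chosen by the peak positions themselves, so the spacing, size and number of the regions are descriptions and carry no test.

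The data came from a ChIP-seq experiment, in which chromatin bound by a protein is precipitated with an antibody and sequenced. The cells were leukemic B cell progenitors from the lymph nodes of a C57BL/6 mouse of genotype Stat5b-CAxBlnk+/-, in which a constitutively active Stat5b transgene was combined with loss of 1 copy of Blnk, whose product links the pre-B cell receptor to its signalling enzymes. The cells were given murine IL7 at 10 ng/mL for 30 minutes, fixed for 10 minutes in formaldehyde at 1% and sheared by sonication to about 200 bp. There was 1 STAT5 library, made with antibody sc-835 (C-17), and 1 input library without precipitation from cells treated the same way. The sources used here do not give the transgene's promoter, the purity of the lymph node cells or the age of the mouse. With 1 library, no spread between animals could be estimated, and no wild-type, unstimulated or transgene-free peak list was analysed here. The transgene, the Blnk allele, the leukemia and the IL7 therefore cannot be told apart in any value below. Of 12 marker genes of B cell progenitors, 11 had a STAT5 peak within 20 kb, against 4 of 7 for T cells, 1 of 7 for myeloid cells and 1 of 5 for erythroid cells, and 21.6% of all protein-coding genes. A clustered peak stood that near to 1 of the 12 B cell progenitor markers, Ebf1, and to 0 of the T cell, myeloid and erythroid markers, beside 1.61% of all protein-coding genes. The T cell markers with a STAT5 peak that near were Cd3d, Cd3e, Cd3g and Zap70. Markers that lie side by side can share a peak, so the markers of a cell type are not independent. A peak list holds no expression, so these counts do not measure purity.

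STAT5 proteins wait in the cytoplasm until JAK kinases, bound to cytokine receptors such as that of IL7, phosphorylate them. They then pair, enter the nucleus and bind a short palindrome, TTCNNNGAA, in which N is any base. Among the genes they are best known to induce are the SOCS family, whose proteins shut the same receptors down, and survival genes such as Pim1 and Mcl1. In B cell progenitors the IL7 receptor uses STAT5 for survival and growth, while factors such as EBF1, IRF4, IRF8 and Ikaros family proteins set the B lineage programme.

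The sequences below show what a clustered STAT5 peak covers where it falls at or near an annotated gene start. They are RefSeq promoter windows of build GRCm38.p6, whose coordinates are those of mm10, and each spans 250 bases before to 50 after an annotated start, which is base 251. Each is written 5′ to 3′ on the strand of its gene, and capitals mark the letters TTCNNNGAA, which read the same on both strands. The first 7 are the windows of named protein-coding genes among the first 10 that held these letters under a clustered peak, in the order of the number of peaks in their region. The last, from Bcl6, was chosen after its values were seen, because it held 3 matches.
Cish: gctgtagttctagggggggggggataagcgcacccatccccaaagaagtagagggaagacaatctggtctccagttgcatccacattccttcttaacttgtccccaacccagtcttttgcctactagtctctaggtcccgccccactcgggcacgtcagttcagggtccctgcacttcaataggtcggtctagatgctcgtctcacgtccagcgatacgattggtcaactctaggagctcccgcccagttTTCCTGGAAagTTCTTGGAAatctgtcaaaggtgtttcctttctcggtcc
Socs3: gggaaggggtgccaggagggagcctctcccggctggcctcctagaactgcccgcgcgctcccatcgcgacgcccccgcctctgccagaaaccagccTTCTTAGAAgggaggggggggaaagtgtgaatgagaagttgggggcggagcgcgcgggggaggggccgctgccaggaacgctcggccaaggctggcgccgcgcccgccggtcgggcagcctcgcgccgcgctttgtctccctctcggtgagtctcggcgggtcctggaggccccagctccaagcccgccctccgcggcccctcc
Irf8: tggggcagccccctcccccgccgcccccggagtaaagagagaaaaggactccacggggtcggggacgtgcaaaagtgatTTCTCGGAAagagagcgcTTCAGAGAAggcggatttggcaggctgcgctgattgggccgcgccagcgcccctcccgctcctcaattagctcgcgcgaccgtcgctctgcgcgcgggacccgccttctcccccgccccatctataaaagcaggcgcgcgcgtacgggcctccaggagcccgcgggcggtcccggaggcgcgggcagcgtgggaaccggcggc
B4galt1: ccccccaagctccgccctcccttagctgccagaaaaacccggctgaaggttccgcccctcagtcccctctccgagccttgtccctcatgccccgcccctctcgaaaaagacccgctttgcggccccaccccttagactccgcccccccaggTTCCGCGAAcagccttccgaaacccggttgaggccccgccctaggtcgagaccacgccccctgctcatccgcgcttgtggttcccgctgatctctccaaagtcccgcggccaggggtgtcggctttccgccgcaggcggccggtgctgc
Heg1: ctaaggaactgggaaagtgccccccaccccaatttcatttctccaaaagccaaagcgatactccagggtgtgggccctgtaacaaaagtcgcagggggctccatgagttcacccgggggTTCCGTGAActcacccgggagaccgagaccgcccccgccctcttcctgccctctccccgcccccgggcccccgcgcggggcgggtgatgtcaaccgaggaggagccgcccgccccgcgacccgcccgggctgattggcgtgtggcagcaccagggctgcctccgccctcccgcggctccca
Lta: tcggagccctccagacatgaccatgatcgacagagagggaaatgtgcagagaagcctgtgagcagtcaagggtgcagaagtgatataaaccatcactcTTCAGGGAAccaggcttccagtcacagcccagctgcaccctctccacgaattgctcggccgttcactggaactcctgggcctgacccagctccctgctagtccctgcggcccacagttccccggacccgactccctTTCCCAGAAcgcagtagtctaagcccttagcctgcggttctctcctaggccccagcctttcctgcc
Ltb: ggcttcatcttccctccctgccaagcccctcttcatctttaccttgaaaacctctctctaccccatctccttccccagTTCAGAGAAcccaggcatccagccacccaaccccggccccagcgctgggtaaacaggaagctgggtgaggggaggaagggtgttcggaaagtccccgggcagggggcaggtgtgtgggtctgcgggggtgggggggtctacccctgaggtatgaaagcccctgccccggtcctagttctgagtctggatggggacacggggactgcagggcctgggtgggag
Bcl6: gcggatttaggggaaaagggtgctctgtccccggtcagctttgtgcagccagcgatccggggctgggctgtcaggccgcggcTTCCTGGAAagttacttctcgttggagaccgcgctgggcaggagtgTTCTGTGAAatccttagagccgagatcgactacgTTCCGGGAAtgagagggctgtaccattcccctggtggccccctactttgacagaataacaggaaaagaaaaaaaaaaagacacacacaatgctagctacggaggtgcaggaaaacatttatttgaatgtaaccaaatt

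Cish encodes a SOCS family inhibitor, and its window (chr9:107296409-107296708, plus strand) held TTCCTGGAA from base 251 and TTCTTGGAA from base 262. The first match therefore began at the annotated start, and the first bases of the matches stood 11 bp apart. The window of Socs3 (chr11:117969317-117969616, minus strand), also a SOCS inhibitor, held TTCTTAGAA from base 97. Irf8 (chr8:120736108-120736407, plus strand), an interferon regulatory factor of B and myeloid cells, had TTCTCGGAA from base 80 and TTCAGAGAA from base 98, with first bases 18 bp apart. Those of B4galt1 (chr4:40853935-40854234, minus strand), a galactosyltransferase, and Heg1 (chr16:33684216-33684515, plus strand), a membrane protein, had 1 match each, TTCCGCGAA from base 152 and TTCCGTGAA from base 120. The genes of the lymphotoxins share a region. Lta (chr17:35205302-35205601, minus strand) had TTCAGGGAA from base 99 and TTCCCAGAA from base 235, with first bases 136 bp apart, and Ltb (chr17:35194257-35194556, plus strand) had TTCAGAGAA from base 79. The Bcl6 window (chr16:23981234-23981533, minus strand) lies at an annotated start inside the bounds of the gene, as do those of Socs3, Heg1 and Lta. That of Bcl6 held TTCCTGGAA, TTCTGTGAA and TTCCGGGAA from bases 83, 129 and 163. All of these matches lay within the peak that overlapped the window. At Heg1 and Ltb that peak ended before the annotated start.

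Across the table of windows, 61 overlapped a clustered peak, at 60 genes, and 27 of them (44.3%, exact 95% interval 31.5% to 57.6%) held TTCNNNGAA. Of the 677 windows that overlapped a peak outside the clusters, 258 (38.1%, 34.4% to 41.9%) held it, and the intervals overlap. Over all 32851 windows the share was 8.3%. At least 2 matches were found in 7 of the 61 windows (11.5%), in 24 of the 677 (3.55%) and in 0.457% of all windows. These 7 windows are few, no interval was computed for these shares, and their difference was not tested. In the windows under clustered peaks all 35 matches lay wholly inside the peak, while the peaks covered 66.2% of the bases, and in the 677 windows 269 of 284 matches did, with 61.0% of the bases covered. No match stood in the windows of Socs1, Mcl1, St6gal1, Klf2, Fos, Runx1, Lcp2 or Spred2 that a clustered peak overlapped, which says only that these letters are not in those 300 bases. The table covers 80.3% of protein-coding genes, and the sequence of peaks away from annotated starts was not used here.

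The 196 regions held between 4 and 11 peaks. There were 104 regions with 4 peaks, 47 with 5, 24 with 6, 9 with 7, 4 with 8, 3 with 9, 4 with 10 and 1 with 11. From the start of the first to the end of the last peak they spanned a median of 38.3 kb (range 2.087 to 115.769 kb) and 7863.841 kb in all, of which the peaks covered 354.079 kb. Most of the length of a region was therefore free of listed peaks, with a median of 4.35% covered. Neighbouring midpoints within a region stood a median of 6.32 kb apart, and 79 of the 772 gaps were under 1 kb. Whether such neighbours belonged to 1 broad signal was not tested, since no signal track was used here. Counting midpoints closer than 1 kb as 1 peak left 161 of the 196 regions, and closer than 5 kb left 55.

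**Figure D1:**
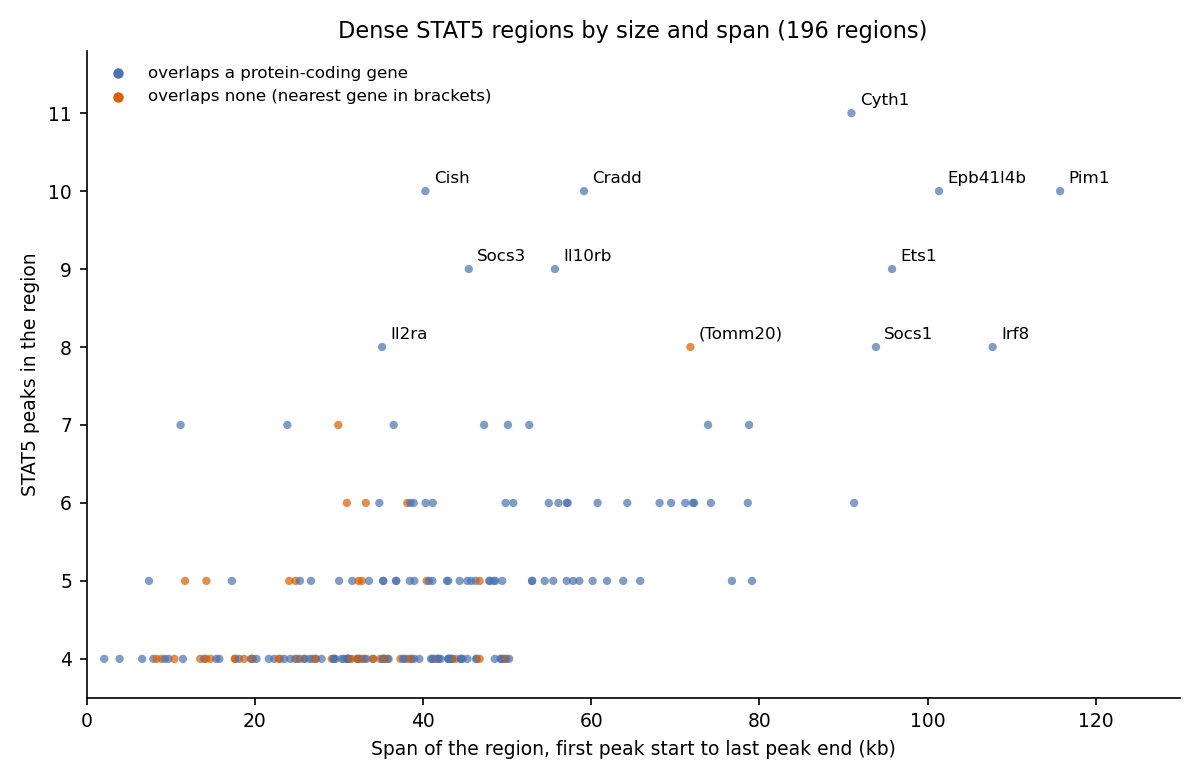
Each point is 1 of the 196 dense regions, with its span in kb on the horizontal axis and its number of STAT5 peaks on the vertical axis; orange points overlap no protein-coding gene. The 12 regions with 8 or more peaks are labelled with a gene they overlap, or in brackets with the nearest gene, and span from 35.1 to 116 kb, while the 104 regions with 4 peaks span at most about 50 kb.

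Protein-coding genes overlapped by a region, counted from 1 bp of overlap, numbered 214 of 21775 (0.983%). Widening each region by 20 kb on both sides brought in 352 genes (1.62%). A clustered midpoint lay inside 163 genes (0.749%), and any STAT5 midpoint inside 2145 (9.85%), so 7.6% of the genes with a peak inside held a clustered one. Overlapped genes were longer than genes at large, with a median of 24.9 kb against 17.2 kb for all protein-coding genes. Of the regions, 106 overlapped 1 protein-coding gene, 44 overlapped at least 2, with 6 as the most, and 46 overlapped none. In 40 regions every peak lay inside the bounds of 1 gene. Of long noncoding RNA genes, 141 of 12639 (1.12%) were overlapped, and of microRNA genes 7 of 1228 (0.57%). Of the microRNA genes, Mir6973a, Mir6974, Mir6975 and Mir8094 lay in the region of the lymphotoxin genes, Mir5123 in that of B4galt1, and Mir7053 and Mir1195 elsewhere.

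Gene lists by role were compared with that 0.983%, and no list was tested, since neighbouring genes share regions and the members were chosen with earlier results known. Of 1355 listed genes, 68 (5.02%) were overlapped by a region, in 21 of 29 lists. The other 146 overlapped genes were in no list. Shares were not adjusted for gene length, which differed between lists. The median was 65.4 kb for chromatin regulators and 5.275 kb for ligands, for example, beside 17.2 kb for all protein-coding genes.

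Inhibitors that switch cytokine signalling off were overlapped in 5 of 30 cases (16.7%, exact 95% interval 5.64% to 34.7%). They were Cish, Socs3, Socs1, Socs2 and Spred2, the last an inhibitor of RAS signalling, and Cblc, a ubiquitin ligase of receptors, lay 19.3 kb from a region. Of the SOCS family of 8 genes, 4 were overlapped. The Socs1 region (chr16:10725047-10818919) held 8 peaks over 93.9 kb and ran from Clec16a past Socs1 to Tnp2, Prm3, Prm2 and Prm1, genes of sperm chromatin. Its peaks were 1 inside a protein-coding gene, 2 within 1 kb of a gene end and 5 intergenic. Socs2 lay in a region of 5 peaks (chr10:95371820-95424801), and Spred2 in one of 4 peaks (chr11:19924146-19965268), 3 of which lay inside the gene and the other at a gene end. A STAT5 midpoint lay inside 9 of the 30 listed inhibitors, against 9.85% of all protein-coding genes. Of these 9, 4 held a clustered one (44.4%), beside 7.6% over all genes with a midpoint inside. Of the JAK and STAT genes, the kinases and factors of the same pathway, 0 of 12 were overlapped (exact 95% interval up to 26.5%). The share over all protein-coding genes, 0.983%, and that interval leave nothing to read from this 0. A STAT5 midpoint lay inside 5 of the 12, against 9.85% of all protein-coding genes. A clustered one lay inside 0 of the 5, beside 7.6% over all genes with a midpoint inside, and nothing is read from so few.

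Receptors for cytokines and growth factors were overlapped in 4 of 53 cases (7.55%, 2.09% to 18.2%), by regions at Il10rb, Il2ra, Ifngr2 and Il6ra. Il2ra encodes the alpha chain of the IL2 receptor, and 6 of its 8 peaks (chr2:11620295-11655433) were intergenic. Il10rb encodes a shared chain of IL10 family receptors, and its region of 9 peaks (chr16:91405663-91461352) began 74 bp from Ifnar2, a chain of the type I interferon receptor. Ifngr2, a chain of the interferon gamma receptor, had 4 peaks of its own (chr16:91533485-91548911), 72.132 kb further along. The Il6ra region (chr3:89863124-89906618) held 4 peaks. Another receptor gene, Lifr, for leukemia inhibitory factor, lay 841 bp from a region of 5 peaks (chr15:7065680-7089769). A STAT5 midpoint lay inside 21 of the 53 receptor genes, against 9.85% of all protein-coding genes. A clustered one lay inside 4 of the 21 (19.0%), beside 7.6% over all genes with a midpoint inside.

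Among ligands, 4 of 42 genes were overlapped (9.52%, 2.66% to 22.6%), and 3 of these, Tnf, Lta and Ltb, are neighbours in 1 region. That region (chr17:35194092-35258385) held 6 peaks 369, 706, 684, 440, 387 and 487 bp wide, in order of position, and also overlapped Nfkbil1, Atp6v1g2 and Ddx39b. All 6 stood within the first 2954 places of the deposited order, which follows a key that the sources used here do not give. The Lta peak (chr17:35205053-35205758) held place 2. Vegfa, a growth factor for blood vessels, had 6 peaks (chr17:46029598-46086806), of which 1 lay inside the gene and 5 were intergenic, up to 35938 bp from the nearest gene end.

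Genes of survival and death were overlapped in 3 of 49 cases. Pim1, a kinase that promotes survival, had the longest region of all, 10 peaks over 116 kb (chr17:29393555-29509323), and none lay inside a protein-coding gene. Its 3 peaks nearest to Fgd2, an exchange factor gene 14.0 kb away, were 869, 649 and 475 bp wide, and the one at chr17:29395281-29395929 held place 3 of the deposited order. The 4 that followed lay in noncoding genes, and the last 3, 631, 586 and 248 bp wide, stood beyond Pim1. Mcl1, an inhibitor of apoptosis, had 7 peaks within 23.9 kb (chr3:95650758-95674624), 1 of them inside the gene. Cradd, a death domain adaptor, was the only gene overlapped by more than 1 region, and 11 clustered peaks lay inside it.

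**Figure D2:**
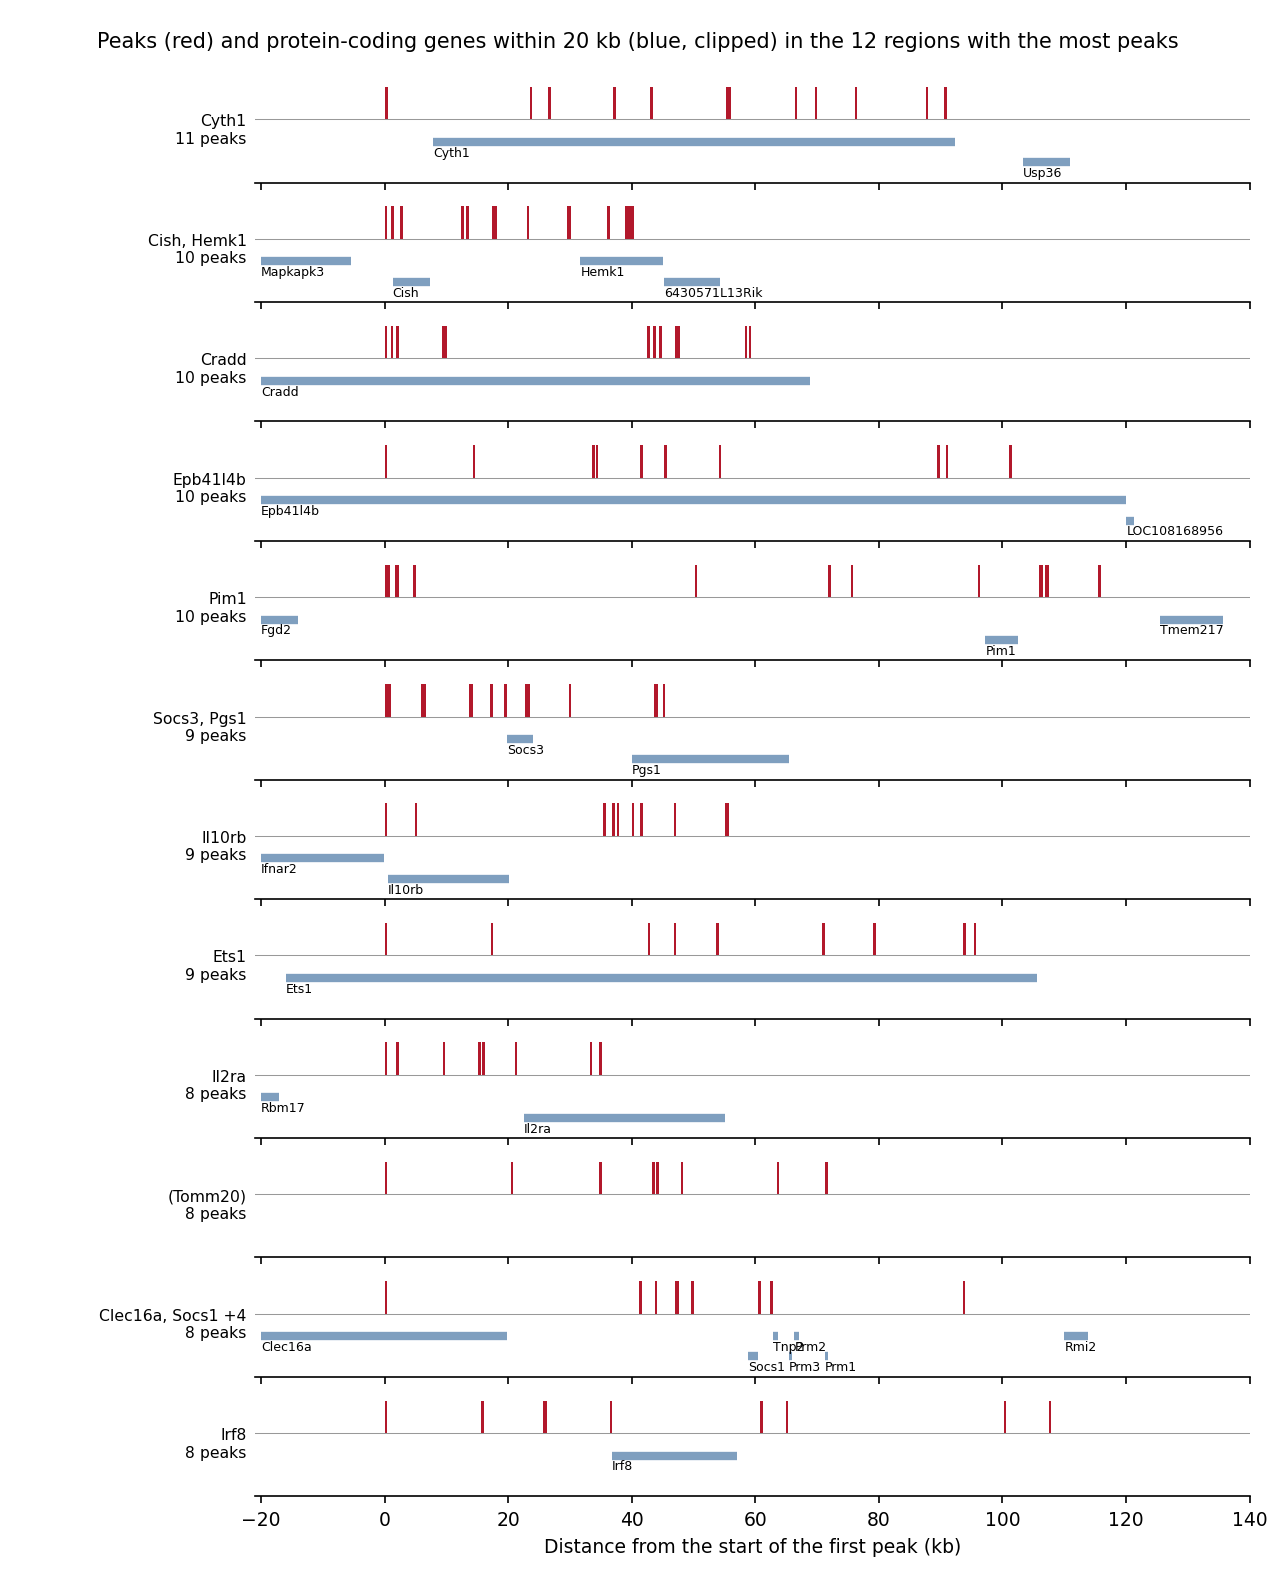
The 12 regions with the most STAT5 peaks are drawn to scale from the start of their first peak (horizontal axis, kb), with peaks in red and protein-coding genes within 20 kb in blue, clipped at 20 kb from the region. The 10 peaks of the Epb41l4b region and the 9 of the Ets1 region all lie inside the gene, while the 10 of the Pim1 region all lie outside it.

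Transcription factors of the B lineage had 11 of 43 genes overlapped (25.6%, 13.5% to 41.2%), against 0.983% of protein-coding genes. They were Ets1, Irf8, Fli1, Ebf1, Foxp1, Bcl6, Ikzf3, Spib, Irf4, Erg and Runx1, and Klf2 and Xbp1 lay within 20 kb of a region. The genes of this list are long, with a median of 88.0 kb. A STAT5 midpoint lay inside 24 of the 43, against 9.85% of all protein-coding genes. A clustered one lay inside 10 of the 24 (41.7%), beside 7.6% over all genes with a midpoint inside. Several of these genes also serve other blood cells. Ets1, an ETS factor of lymphocytes, had 9 peaks over 95.8 kb (chr9:32652233-32748016), all inside the gene, with widths of at most 443 bp. Its neighbour Fli1, also an ETS factor, had 7 (chr9:32502560-32549822), 6 of them inside it, and 102.41 kb lay between these regions. Ebf1, a master factor of the B lineage, had 7 peaks (chr11:44575592-44649492), of which 2 lay inside the gene, 2 stood 4905 and 6925 bp outside its nearer annotated end and 3 lay nearer to Rnf145. None of these 7 was wider than 352 bp.

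Irf8 had 8 peaks over 108 kb (chr8:120699598-120807345). One of these stood at a gene end, 1 in a noncoding gene and 6 were intergenic, on both sides of Irf8. Irf4, its relative in the plasma cell programme, had 4 peaks (chr13:30723910-30770305) that were 449, 444, 196 and 254 bp wide, and the narrowest was the one inside the gene. Bcl6, a repressor of germinal centre B cells, had 4 peaks (chr16:23981067-24012293) with widths of 649, 364, 765 and 210 bp, at places 13, 2119, 47 and 2699. The peaks of 649 and 765 bp were thus the early ones, and both covered an annotated start of the gene. Ikzf3, the Ikaros family factor Aiolos, shared a region of 4 peaks with Mien1 (chr11:98457897-98493799). Spib, an ETS factor, shared 4 with Pold1, Nr1h2 and Napsa (chr7:44531308-44572610). Foxp1, a forkhead factor, had 6 clustered peaks (chr6:99301962-99376193) among 13 inside its 597 kb. Runx1 (chr16:92647831-92697630) and Erg (chr16:95405335-95453868) had 4 each, all inside the gene, and Runx1 held 4 further peaks that were not clustered.

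Other blood transcription factors were overlapped in 5 of 70 cases (7.14%, 2.36% to 15.9%), at Fos, Zfp36, Junb, Nr4a1 and Mnt. These are mostly genes of the early response to stimulation, and Zfp36 encodes an RNA-binding protein that promotes mRNA decay. Fos had 6 peaks over 91.3 kb (chr12:85382798-85474071), 3 of them in noncoding genes. Zfp36 had 4 within 3.915 kb (chr7:28378992-28382906), which were 288, 615, 485 and 214 bp wide. Junb shared 4 with Rnaseh2a, Prdx2 and Hook2 (chr8:84965887-84990114), all within the first 2954 places. Bhlhe40, a basic helix-loop-helix repressor that was in no list, had 6 peaks (chr6:108660000-108709821), of which 2 stood at a gene end and 4 were intergenic.

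Cyth1, an exchange factor for ARF proteins, had the region with the most peaks of all, 11 over 91.0 kb (chr11:118156312-118247264), 10 of them inside the gene. Arhgef10, also an exchange factor gene, shared 7 peaks with Kbtbd11 (chr8:14985335-15035436), 6 of them inside protein-coding genes. Trio, a large exchange factor, had 6 clustered peaks (chr15:27758697-27828204) of 9 inside the gene. The Arhgef10 peaks had a median width of 244 bp and those of Trio 259.5 bp, while those of Cyth1 had 413 bp.

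GIMAP genes, small GTPase genes of lymphocytes that lie side by side, were overlapped in 3 of 8 cases, Gimap9, Gimap4 and Gimap6, all by 1 region of 6 peaks (chr6:48673309-48711787). Gimap7 and Gimap8 lay 6.83 and 12.4 kb from it, so these 5 genes count 1 cluster. Chromatin regulators were overlapped in 5 of 98 cases (5.10%, 1.68% to 11.5%). Arid1b, a subunit of a remodelling complex, had 5 peaks within 7.414 kb (chr17:5084225-5091638) that were 214, 331, 542, 243 and 353 bp wide. Arid5a, an RNA-binding and DNA-binding protein, shared 6 with Neurl3 (chr1:36251485-36308584), and Cbx7, Kdm2a and Ezh2 were overlapped by regions of 5, 4 and 4 peaks. Cell cycle genes were overlapped in 3 of 55 cases (5.45%, 1.14% to 15.1%), against 0.983% of all protein-coding genes. Cdk6, a cyclin-dependent kinase that drives cells into division, had 5 peaks (chr5:3460846-3501965), all inside the gene, while Btg2 and Cdkn2d, inhibitors of proliferation, had 4 each in their regions. Genes of B cell surface proteins and antigen presentation gave 3 of 50 (6%, 1.25% to 16.5%). Cd38 and its neighbour Bst1 lay in 1 region of 5 peaks (chr5:43824529-43882373) and Cd2 in another of 4 (chr3:101272962-101293162).

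Pre-B and B cell receptor signalling was overlapped in 2 of 60 cases (3.33%, 0.406% to 11.5%). A STAT5 midpoint lay inside 32 of the 60 genes, against 9.85% of all protein-coding genes. A clustered one lay inside 2 of the 32 (6.25%), near the 7.6% over all genes with a midpoint inside. Pik3cd, a lipid kinase subunit, had 5 peaks (chr4:149657825-149696799), and Fyn, a SRC family kinase, had 4 within 9.743 kb (chr10:39484229-39493971), all inside the gene. Interferon response genes (Pml and Igtp) and RAS and MAP kinase genes (Rasa3 and Sipa1l1) gave 2 each, of 47 and 56. Among lists with 1 overlapped gene, it was Poll for DNA repair (of 29 genes) and Lcp2 for T cells (of 38). It was Phlpp1 for AKT signalling (of 39), Selplg for adhesion (of 49), Bcl3 for NF-kB (of 54) and Slc29a1 for nutrient transport (of 63). These shares ran from 1.59% to 3.45%. The exact interval of each includes the 0.983% of all protein-coding genes, so nothing is read from them. No gene was overlapped among 56 of lipid mediator and calcium signalling, 55 ubiquitin ligases and deubiquitinases, and 49 microRNA genes and hosts. The same held for 31 myeloid, 20 erythroid, 25 neuronal and 25 liver genes. At the 0.983% of all protein-coding genes, lists of these sizes would hold under 1 overlapped gene each, so nothing is read from these counts of 0.

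**Figure D3:**
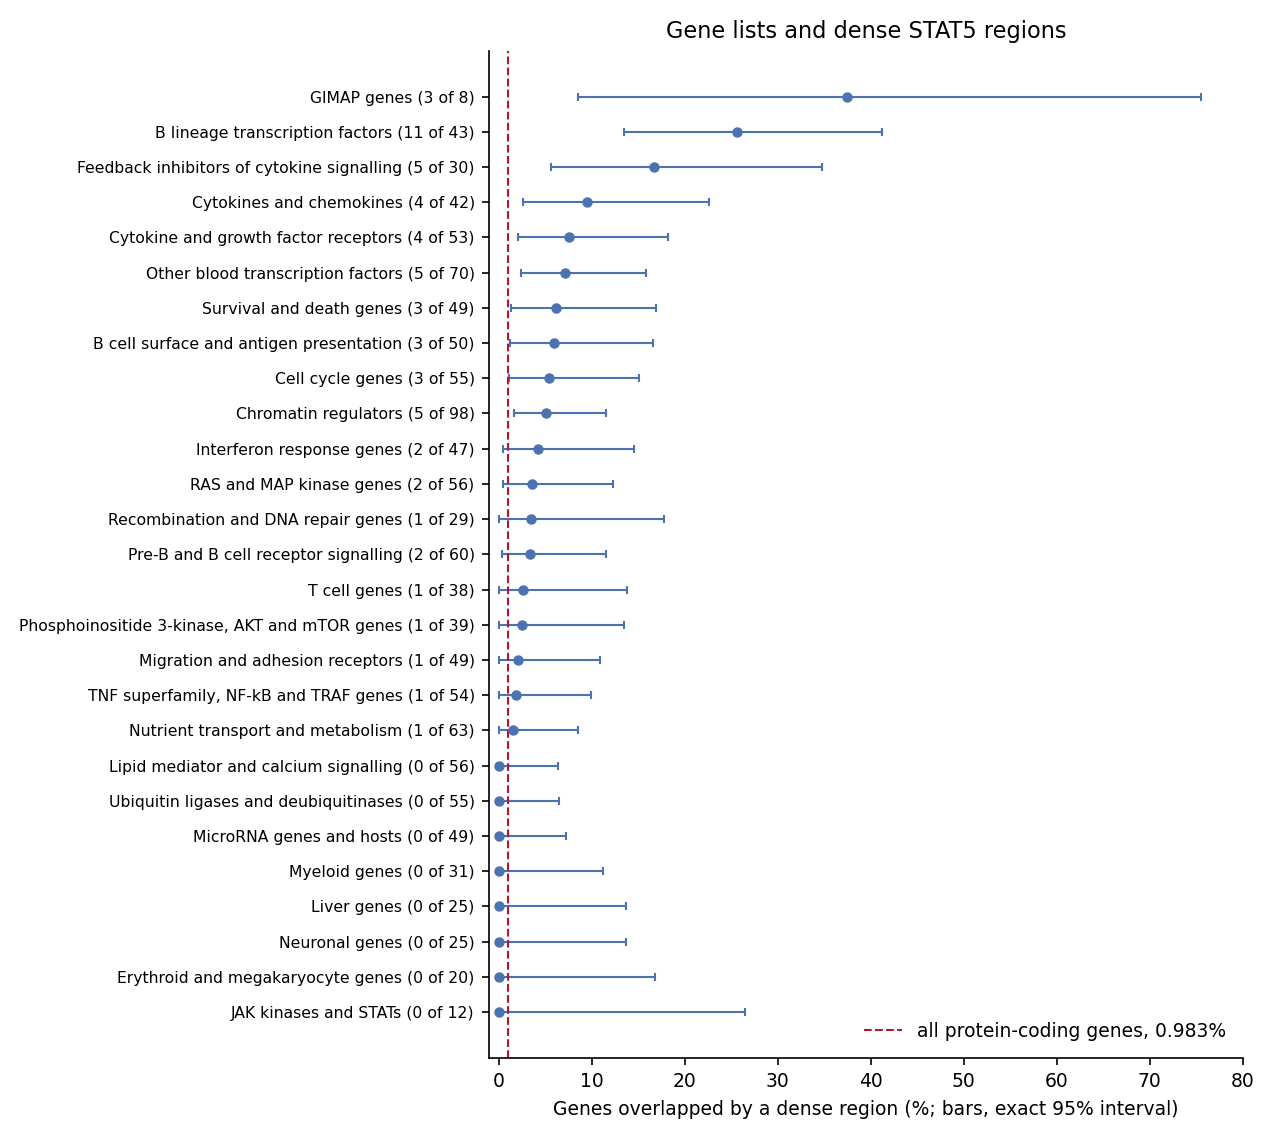
For each gene list drawn the point is the percentage of members overlapped by a dense region, with its exact 95% interval, and the dashed line marks 0.983%, the share of all protein-coding genes. GIMAP genes, B lineage factors and feedback inhibitors stand highest, at 37.5%, 25.6% and 16.7%, and 8 lists are at 0.

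Ranked by clustered peaks within their bounds, genes outside these lists stood among the first. After Cradd with 11 and Cyth1 with 10, Epb41l4b, a band 4.1 family protein, held 10 (chr4:57023202-57124567). Its peaks were narrow, with a median width of 233 bp against 317.5 bp over all clustered peaks. Cds2, which makes CDP-diacylglycerol for phosphoinositide synthesis, held 7 within 11.169 kb (chr2:132278320-132289488), 365, 259, 644, 269, 288, 229 and 205 bp wide, or 11.9 per 100 kb of gene. Asb2, a substrate receptor of a ubiquitin ligase with a SOCS box, held 5 in a region it shares with Fam181a (chr12:103312982-103347789), or 14.3 per 100 kb. St6gal1, a sialyltransferase of B cells, held 6 (chr16:23274629-23314942), of which the widest, at 699 bp, had place 87 and the others were 230 to 403 bp wide. Heg1 held 5 of the 6 peaks of its region (chr16:33684140-33734877). St3gal2, Elovl5, St3gal1 and Pik3cd also held 5 each, and Fli1 held 6.

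Further regions with 6 or 7 peaks lay at genes of mixed function. Abcg1, a cholesterol exporter, had 7 peaks (chr17:31038470-31074980), B4galt1 had 7 (chr4:40823565-40876200) and Lrrc32, an anchor of latent TGF-beta, had 7 (chr7:98486481-98565264). Regions of 6 peaks overlapped Cmtm6 and Cmtm7, membrane proteins of the MARVEL family (chr9:114742806-114781699), Herpud1, a gene of the endoplasmic reticulum stress response (chr8:94372835-94413998), and Bfsp2 with Tmem108 (chr9:103449171-103504127). Others of that size lay at Lpp, a LIM domain protein (chr16:24338507-24394616), Syndig1l (chr12:84674647-84735407), Tmem252 with Pgm5 (chr19:24616130-24684264) and Lhpp with Fam53b (chr7:132692063-132763256). The remaining regions among the 40 with the most peaks are Cish with Hemk1 (chr9:107295399-107335679, 10 peaks), Cradd (chr10:95255350-95314497, 10) and Socs3 with Pgs1 (chr11:117946259-117991703, 9), and those without a gene.

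Regions without a protein-coding gene numbered 46 and held 205 clustered peaks. A noncoding gene was overlapped by 33 of them, and 13 overlapped no annotated gene. The nearest protein-coding gene stood a median of 26.8 kb away (0.046 to 305.011 kb), within 20 kb for 21 regions and beyond 100 kb for 5. The one with the most peaks (chr8:126804213-126876016) held 8, of which 7 lay in the noncoding genes Gm31718 and A630001O12Rik, and the nearest protein-coding gene was Tomm20, 54.6 kb away. Their widths were 279, 341, 506, 418, 477, 211, 377 and 483 bp, and the last had place 143. Irf2bp2, a corepressor, lay 210 kb away and had a region of 5 peaks of its own (chr8:126548957-126614785). Another 6 peaks lay near Ly6e and Ly6m, surface proteins of lymphoid cells (chr15:74906118-74937061), with Ly6e at 18.0 kb. Regions of 6 peaks also lay 9.62 kb from Bcar3, a signalling adaptor (chr3:122372016-122410140), and 92.6 kb from Tmem132e (chr11:82540193-82573395).

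Smaller regions of this kind, with 5 peaks each, stood 45.2 kb from Chd7, a chromatin remodeller (chr4:8913622-8927860), 93.8 kb from Foxo1, a forkhead factor of B cell development (chr3:52443892-52468740), and 53.5 kb from Irs2, an insulin receptor substrate (chr8:10898864-10931198). The distance to a gene does not show which gene, if any, a region acts on. The next regions stood apart in form. At the start of the assembled sequence of chromosome 9 (chr9:3000296-3030220), 7 peaks that were 338, 530, 230, 471, 242, 570 and 193 bp wide lay 305 kb from the nearest protein-coding gene, Alkbh8. Beside Atad2b (chr12:5049832-5061534), 5 peaks were 2184, 1205, 1023, 1252 and 1612 bp wide, and covered 62.2% of the region. The next highest coverage was 56.1%, over the 2.087 kb of the Ikzf4 region. How reads were placed on repeated sequence at these positions was not tested.

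Several regions followed each other closely. Within 500 kb of one another lay 21 groups of 2 or 3 regions, and those named here were chosen after their values were seen, most of them for their number of peaks. On chromosome 11 the regions at Tha1, at Socs3 with Pgs1 and at Cyth1 held 24 peaks over 375.606 kb, with 43.582 and 164.608 kb between them. On chromosome 10 the 2 regions at Cradd and that at Socs2 held 19 peaks over 282.038 kb. Fli1 and Ets1 together had 16 peaks over 245.457 kb, Srsf3 and Pim1 15, and Il10rb and Ifngr2 13 over 143.249 kb. The region without a gene near Tomm20 formed such a group of 13 peaks with that at Irf2bp2, and Socs1 another of 13 with Snn and Txndc11. Bcl6 and Lpp held 10 peaks in 2 regions 326.213 kb apart. The count of 196 regions therefore depends on where a gap over the limit happens to fall, and a window of 100 kb joined Cradd and Socs2 into 1 region of 19 peaks.

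Relative to genes, the clustered peaks had a lower share at gene ends and a higher intergenic share than the other peaks of the list. Of the 968, 86 midpoints (8.88%, exact 95% interval 7.17% to 10.9%) stood within 1 kb of an end of a protein-coding gene, against 854 of 4933 (17.3%, 16.3% to 18.4%) outside the clusters. Within protein-coding genes, but more than 1 kb from such an end, were 402 (41.5%, 38.4% to 44.7%), against 43.97%. With midpoints near the ends included, these genes held 442 of the 968 clustered midpoints (45.7%, 42.5% to 48.9%). Of the 4933 other midpoints they held 2634 (53.4%, 52.0% to 54.8%), a higher share. Inside noncoding or other genes were 110 clustered midpoints (11.4%, 9.43% to 13.5%), against 8.41%. Intergenic midpoints numbered 370 (38.2%, 35.2% to 41.4%), against 30.3% (29.0% to 31.6%). The median distance to the nearest gene end was 17.02 kb for clustered and 13.2 kb for other peaks. The share beyond 100 kb from any gene end was 6.61% for clustered and 11.3% for other peaks, so the clustered distances lay more in the middle range. Of the regions, 64 had a peak at a gene end, and in 20 every peak was intergenic. Intergenic shares were 35.1% in regions of 4 peaks, 38.7% in those of 5 and 42.0% in those of 6 or more. Peaks of 1 region share their surroundings, so these intervals are too narrow, and the differences between clustered and other peaks were not tested.

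**Figure D4:**
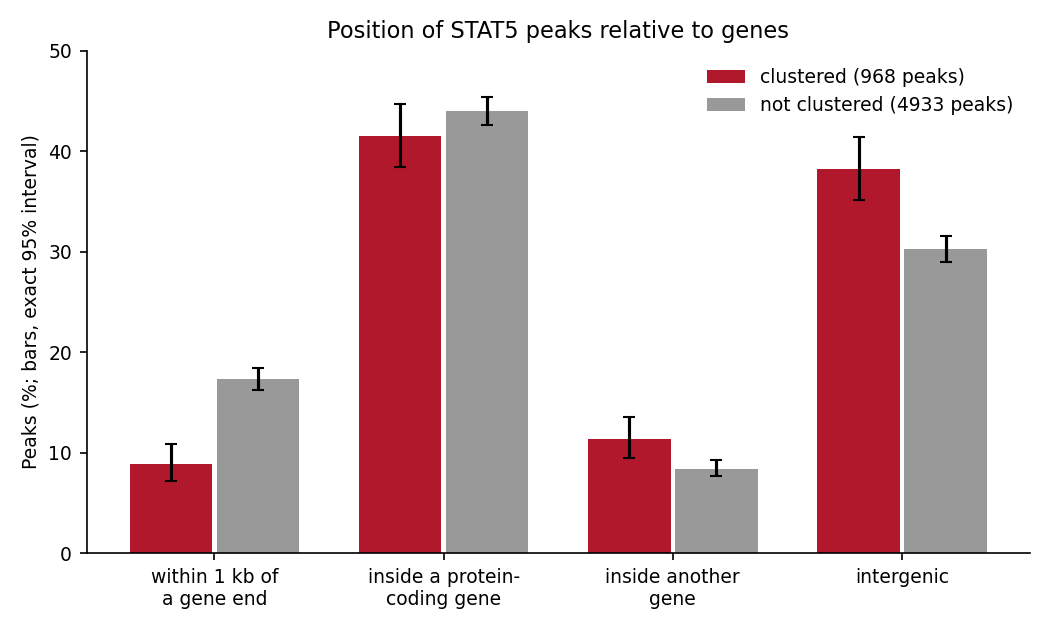
Bars give the percentage of clustered (red, 968) and other (grey, 4933) STAT5 peaks in each of 4 positions relative to genes, with exact 95% intervals that cover counting error only. Gene ends hold 8.88% of clustered and 17.3% of other peaks, and intergenic sequence holds 38.2% and 30.3%.

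Clustered peaks had a median width of 317.5 bp (193 to 2184 bp), against 291 bp outside the clusters, and 15.6% against 9.59% were at least 500 bp wide. The median was higher in each position class, by 327 against 294 bp at gene ends, 301 against 289 bp inside protein-coding genes, 323.5 against 289 bp inside other genes and 337 against 292 bp in intergenic sequence. It moved little with the size of the region, at 314, 315 and 326 bp for regions of 4, 5 and 6 or more peaks, while the widest peak of a region had a median of 462, 505 and 582 bp. A larger region holds more peaks from which its widest is taken. In the deposited order, 547 clustered peaks (56.5%) stood within the first 2954 places, against 48.8% of the others. Regions held 32 of the first 100 places, spread over 27 regions, while 16.4% of all peaks on assembled chromosomes were clustered. In 14 regions every peak stood within the first 2954 places, and in 4 regions none did. Width and order come from the same peak list as the positions, and with the key of the order unknown neither was read as binding strength.

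Chromosomes differed in the share of their peaks that were clustered. Chromosome 8 had the highest share, with 98 of 286 peaks (34.3%, 28.8% to 40.1%) in 19 regions, among them Irf8, Arhgef10, Herpud1 and Irf2bp2. It was followed by chromosome 9 with 94 of 360 (26.1%), the home of Cish, Ets1 and Fli1, and by chromosome 16 with 69 of 283 (24.4%), that of Socs1, Il10rb, Bcl6 and St6gal1. The intervals of chromosomes 8, 9, 11 and 16 lay above the overall 16.4%. Chromosome 13 had the lowest share above 0, with 16 of 258 (6.20%, 3.59% to 9.88%), in 4 regions. On chromosome X no peak of 44 was clustered, for which the exact interval allows a share of up to 8.04% and a floor of 3 counts one of up to 6.82%. These shares were not tested, since peaks of a region are not independent.

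**Figure D5:**
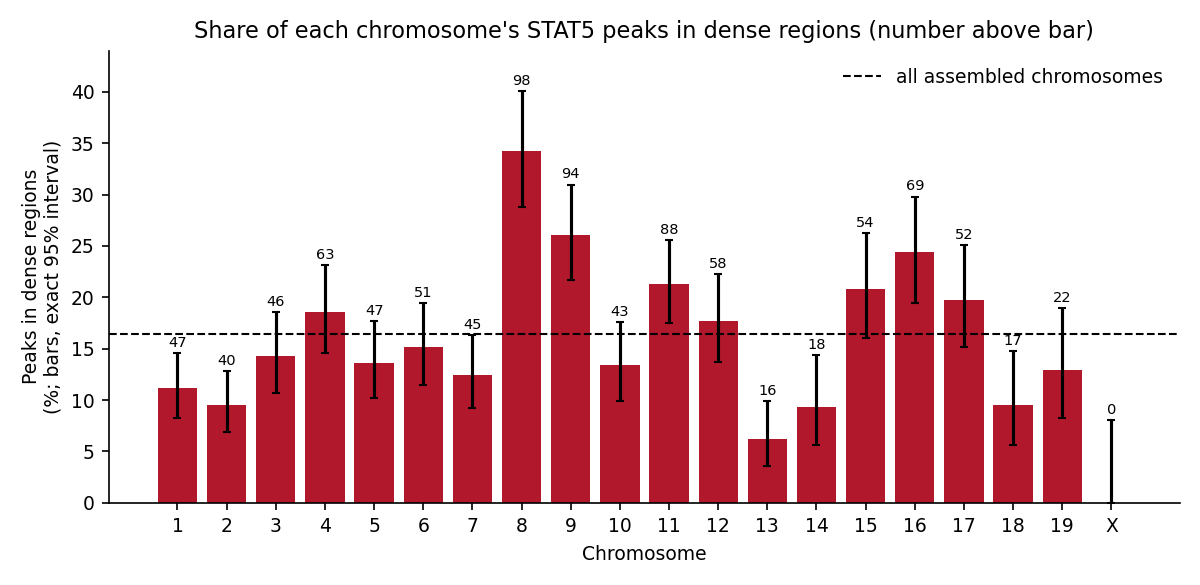
Bars give the percentage of each chromosome's STAT5 peaks that lie in dense regions, with exact 95% intervals, and the number above each bar counts the clustered peaks. Chromosome 8 stands at 34.3% and chromosome 13 at 6.20%, around the overall 16.4% drawn as a dashed line, and chromosome X is at 0.

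The 50 kb limit divided groups that hardly differed. Just inside it stood groups of 4 peaks whose midpoints spanned 49.932 kb at Mylk4 (chr13:32669368-32719616), 49.63 kb near E2f8 (chr7:48887895-48937821) and 49.422 kb at Runx1. Just outside stood groups at Ptpn1, a phosphatase of JAK signalling (chr2:167909952-167960393, 50.02 kb), Tnfsf11, the RANK ligand (chr14:78306708-78357055, 50.027 kb), and H6pd (chr4:149999148-150049499, 50.085 kb). At the other end, the shortest regions were those of Ikzf4 (chr10:128645068-128647154), Zfp36, Rasa3 (chr8:13594831-13601426), Arid1b and Tcf25 (chr8:123389924-123397853), which spanned 2.087 to 7.930 kb. Ikzf4 encodes the Ikaros family factor Eos, and its 4 peaks, 243, 359, 209 and 360 bp wide, all lay inside the gene, with the second at place 63. The longest were at Pim1, Irf8, Epb41l4b, Ets1 and Socs1, from 116 down to 93.9 kb.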

How the data were processed

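The authors deposited 1 list of peak positions, each with a start and end in bp on mm10 and a name in 4 columns, with no height, fold or significance. Per the submitters' processing notes, the tools were BWA 0.7.4, MACS2 and Picard and the build mm10. Settings, peak threshold, use of the input library and read depth are not stated in the sources used here. Positions were counted from 1. Python 3.11.15, with pandas 2.3.3 and scipy 1.17.1, was used to find the regions, and the region finder was checked on simulated peaks against a direct search. The gene table was NCBI RefSeq's for GRCm38.p6, without strand, of which 49599 were kept, 21775 protein-coding, and 340 with a start under 3000000 on any chromosome but Y were left out. A midpoint was placed, in this order, at a protein-coding gene's end (1 kb or less from it), inside such a gene, inside another gene, or intergenic. A region overlapped a gene from 1 bp. Shares carry exact (Clopper-Pearson) 95% intervals, which cover counting error only. With 1 library and members chosen by position, no test was run. The members, gene lists and rule for named genes were chosen with earlier results of these data known. Regions were ranked by peaks, then by shorter span. Named were the first 40 regions, listed genes in rank order (up to 8 a list, all for B lineage factors, receptors and inhibitors), 10 regions without a gene, the 5 longest and 5 shortest, the 3 groups on each side of the limit, the promoters described and the 15 genes with the most clustered peaks inside. The results of 2 lists are not reported here beyond the totals over all lists. Of 1365 listed names, 5 were not found.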

Additional observations from a re-analysis of the deposited data

Results flagged for a closer look

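On JH584304, a sequence not placed on any chromosome, 4 peaks had midpoints spanning 39.2 kb. They would have met the spacing rule, and stayed outside the 968 because only assembled chromosomes were searched. Their widths were 511, 270, 474 and 241 bp, and their places in the deposited order were 3045, 3189, 5086 and 5812. The input library has no peak list of its own here, so no level in a control stands beside them.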

How the results depend on the processing

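The regions depend on the spacing rule. Against 196 regions, 968 peaks, 214 genes and 68 listed genes, a window of 20 kb gave 72, 326, 48 and 24, with 4.29% of clustered peaks at gene ends and 42.0% intergenic. A window of 100 kb gave 325 regions, 1763 peaks and 612 genes. A minimum of 3 peaks gave 492 regions and 1955 peaks, and of 5 peaks 75 and 444. Counting midpoints closer than 5 kb as 1 peak gave 55 regions, 240 peaks, 67 genes and 23 listed genes, with 37.5% inside protein-coding genes. The first 2954 places alone gave 46 regions, 209 peaks and 50 genes. The 2954 widest peaks alone gave 39, 187 and 41, with 31.0% inside genes and 47.1% intergenic. Widening regions by 20 kb gave 352 genes. Gene ends widened to 5 kb gave 25% of clustered peaks at gene ends, against 33.2% of other peaks. Of clustered peaks 34.2% were then inside and 30.6% intergenic, and these shares were not computed for other peaks. In each of these spacing and peak settings the region with the most peaks lay at Cyth1, Cish or Cradd. Of the 40 regions with the most peaks, 29 were overlapped by a region in the 20 kb window, 21 in the 5 kb count, 23 among the first places and 17 among the widest. Joining at 1 kb and leaving out the 5 densest regions moved no count past 1.5 times. No paired analysis was possible because there was 1 STAT5 library. Depth is unknown, so a gene without a region is one where too few peaks passed an unstated threshold.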

Other observations

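Enzymes that build glycans recurred among genes of the regions, and this family was singled out after its values were seen. Of 54 genes with the symbols St3gal, St6gal, St8sia, B3galt, B4galt, Galnt or Mgat, 6 (11.1%) were overlapped, against 0.983% of protein-coding genes. They were St6gal1, St3gal1 and St3gal2, which add sialic acid, B4galt1, which adds galactose, Mgat4a, which branches N-glycans, and Galnt2, which starts O-glycans. The 6 genes are 49.4 to 136 kb long, against a median of 17.2 kb for all protein-coding genes, and length was not adjusted for. A STAT5 midpoint lay inside 13 of the 54, against 9.85% of all protein-coding genes. A clustered one lay inside 6 of the 13, beside 7.6% over all genes with a midpoint inside. B4galt5 lay within 20 kb of a region. St3gal1 had 6 peaks (chr15:67101165-67173416), 439, 394, 425, 262, 262 and 240 bp wide, of which the 3 widest held places 102, 138 and 170. St3gal2 had 5 peaks (chr8:110925576-110955591), Mgat4a had 5 (chr1:37532013-37586483) and Galnt2 had 4 (chr8:124253391-124267371).

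Other families counted in the same way were the Ikaros family with 2 of 5 (Ikzf4 and Ikzf3), the interferon regulatory factors with 2 of 9 (Irf8 and Irf4), the ETS family with 4 of 25 (Spib, Fli1, Ets1 and Erg), the semaphorins with 2 of 20 (Sema7a and Sema4d), the Dock genes with 2 of 11, the Arhgef genes with 2 of 25 and the Nr4a genes with 1 of 3. Zinc finger genes with the symbol Zfp had 3 of 397 (0.756%), near the 0.983% of all protein-coding genes. Every family shown had at least 1 overlapped gene, so these are not an unselected set of families. Several of their genes, such as Ets1 and Irf8, were already counted in the lists above. None of these counts was adjusted for gene length or tested, so they are descriptions only.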
